A study of Homo sapiens with 8 samples.

Results

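The genes described here are the double-stranded RNA sensors DDX58 (current symbol RIGI), IFIH1, DHX58, EIF2AK2 and TLR3, the adaptor MAVS and the interferon regulatory factors IRF1, IRF3, IRF7 and IRF9. A probe was taken as a member when its transcript accession mapped to 1 of these symbols. This gave 13 probes of 10 genes, out of 41000 probes that named 17240 genes. Each value is a log2 ratio, so a difference of 1 unit is a factor of 2.

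Expression was measured on 8 Agilent 2-colour arrays in CAPAN-2, an established human pancreatic adenocarcinoma cell line. On 4 arrays RNA of an ErbB2-KD clone was set against a pool of NT clones. The ErbB2-KD cells carried a stably transfected puromycin vector encoding a short hairpin RNA against ErbB2, and the NT cells the empty vector; clones EV7, EV12, EV9 and EV18 were hybridised on arrays 1, 2, 3 and 4. On the other 4 arrays RNA labelled MUC4-KD, from cells with a retroviral hairpin against MUC4 selected in G418, was set against a pool of Mock clones with the empty retroviral vector, and the labels do not say which clone is on which array. Each control was thus 1 pooled sample, and the tests against 0 leave out the spread among control clones. Both knockdown lines carried a hairpin that their controls lacked, so expression of a hairpin and loss of its target cannot be told apart in these arrays.

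Double-stranded RNA in the cytoplasm is bound by the RIG-I-like receptors DDX58 and IFIH1, which signal through MAVS on mitochondria, while TLR3 senses it in endosomes. The signal activates IRF3 and IRF7, which switch on interferon genes. Secreted interferon acts back on the cell through ISGF3, a complex that holds IRF9 and binds the interferon-stimulated response element (ISRE). The sensors themselves and IRF7 and IRF9 belong to the interferon-stimulated genes. IRF1 answers mainly to interferon gamma, through the gamma-activated site (GAS), and to NF-kB.

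The targeted genes were read first. The brighter ERBB2 probe gave log2 ratios of -0.58, -0.32, -0.33 and -0.38 on ErbB2-KD arrays 1 to 4, lower on all of them, with a mean of -0.40 (SD 0.12, n = 4, adjusted p = 0.145). The dimmer probe A_24_P284420 was near 0 on every array, at 0.04, 0.03, 0.06 and 0.01 (mean 0.04, adjusted p = 0.897). Against its label, MUC4 was higher in the RNA labelled MUC4-KD in the mean of every probe, though not every probe passed the test. The brightest, A_24_P239176, gave 0.47, 0.39, 0.28 and -0.05 on arrays 1 to 4 and did not pass (mean 0.27, adjusted p = 0.167). Probe A_24_P239177 did not pass either (mean 0.41, adjusted p = 0.0984) and was at -0.04 on array 4. Probe A_24_P208825 gave log2 ratios of 1.71, 2.34, 2.21 and 1.08 on arrays 1 to 4 (adjusted p = 0.00804), and A_24_P239183 had a mean of 1.34 (adjusted p = 0.0355). The ratios below follow the dyes in the labels, and in MUC4-KD that direction opposes the one in the study's own gene table. The groups are therefore called RNA labelled MUC4-KD and RNA labelled Mock, and each comparison of the 2 experiments is given in both directions. Where MUC4-KD stands alone, lower or higher means in the RNA labelled MUC4-KD relative to the RNA labelled Mock. If the labels were exchanged, each such direction would reverse. All 8 ductal epithelial marker genes were well above background in both experiments, while of 17 probes for leukocyte, fibroblast and endothelial markers 14 in ErbB2-KD and 15 in MUC4-KD were not. The keratin KRT19 was the 1 ductal gene called, at a mean of 1.02 in MUC4-KD (adjusted p = 0.00585). MUC4-KD array 4 was dimmest in the Mock channel, with 56.7% of probes well above background against 65.9% to 67.3% on the other MUC4-KD arrays, and correlated with them at r = 0.32 to 0.52 across tested probes.

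RefSeq promoter windows (build GRCh38.p14) were at hand for 7 of the 10 members, not for DHX58, IRF3 and IRF7. The 250 bases before each gene start were searched on both strands for an ISRE core, GAAANNGAAA, and for a GAS core, TTCNNNGAA, which reads alike on both strands. An ISRE core stood in 1 of the 7 windows and in 3.02% of all 35116 promoters, and a GAS core in 3 of the 7 and in 6.57% of all. The windows that held one are shown because the ISRE is bound by ISGF3, which holds IRF9, and the GAS is the element through which interferon gamma acts. Each is written 5′ to 3′ along the gene, with the motif in capitals; in the first line 2 overlapping ISRE cores lie on the opposite strand.
IFIH1, chr2:162318808-162318863, minus strand: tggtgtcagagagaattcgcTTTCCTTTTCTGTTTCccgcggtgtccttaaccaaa
IFIH1, chr2:162318685-162318725, minus strand: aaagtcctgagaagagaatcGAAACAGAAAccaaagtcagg
TLR3, chr4:186068958-186069006, plus strand: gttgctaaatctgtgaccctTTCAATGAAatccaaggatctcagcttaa
TLR3, chr4:186069086-186069134, plus strand: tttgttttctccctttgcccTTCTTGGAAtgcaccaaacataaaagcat
IRF1, chr5:132490869-132490917, minus strand: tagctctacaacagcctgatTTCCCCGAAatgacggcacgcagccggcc
IRF9, chr14:24161182-24161230, plus strand: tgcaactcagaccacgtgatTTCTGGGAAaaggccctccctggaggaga
The ISRE cores of IFIH1 began 159 and 21 bases before the gene start. The GAS cores began 178 and 50 bases before it in TLR3, 124 in IRF1 and 63 in IRF9. A match is a description of these letters and not a measured binding site.

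In the RNA labelled MUC4-KD, 7 of the 10 members fell relative to RNA labelled Mock, IRF1 rose, and IRF3 and MAVS did not pass the test. Of the 13 probes, 8 were lower at an adjusted p under 0.05 (limma, Benjamini-Hochberg over all tested probes), against 8.48% of the 25047 probes tested. A single member probe was higher, against 12.0% of all. The fall was 2-fold or more in the mean, and present on 4 of 4 arrays, for 7 of the 13 probes against 2.55% of 24992 probes measured on every array. The median of the 13 member probes was -1.27 on the log2 scale, and that of all tested probes 0.01.

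**Figure D1:**
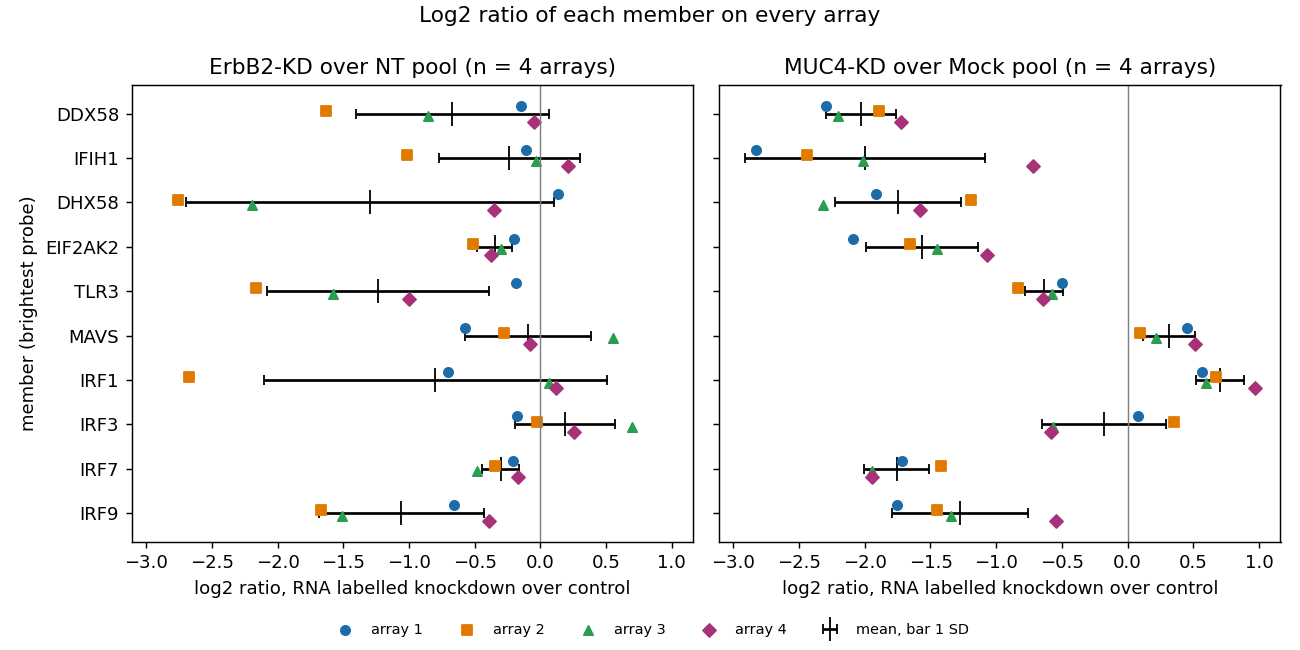
Log2 ratio of RNA labelled knockdown over control (horizontal axis) for the brightest probe of each member (vertical axis), with 1 point per array, the mean as a vertical tick and 1 SD as a bar. In MUC4-KD (right) 7 members lie below 0 on all 4 arrays and IRF1 above 0 on all 4, while in ErbB2-KD (left) array 2 gave the lowest value for 7 of the 10 members.

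DDX58, the RIG-I sensor of RNA with a triphosphate end, was measured at log2 ratios of -2.29, -1.89, -2.20 and -1.73 on MUC4-KD arrays 1 to 4. The 4 arrays lay close together, and the mean of -2.03 (SD 0.26, n = 4) corresponds to a 4.08-fold lower level in the RNA labelled MUC4-KD (adjusted p = 0.00232). IFIH1, the MDA5 sensor of long double-stranded RNA, gave -2.83, -2.44, -2.01 and -0.72. It was low on arrays 1 to 3 and least so on array 4, with a mean of -2.0 (SD 0.92, n = 4, adjusted p = 0.0175). Without array 4 its mean was -2.43, and without array 1, 2 or 3 the test no longer passed, with adjusted p-values of 0.0676, 0.0728 and 0.111.

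DHX58, the LGP2 helicase that modulates both receptors and lacks their signalling domain, gave -1.91, -1.19, -2.32 and -1.58. All 4 arrays were below -1, with a mean of -1.75 (SD 0.48, n = 4, adjusted p = 0.00654). EIF2AK2 encodes PKR, the kinase that halts translation on binding double-stranded RNA. Its log2 ratios were -2.09, -1.65, -1.45 and -1.07, again all below -1, with a mean of -1.56 (SD 0.43, n = 4, adjusted p = 0.00704). Leaving out array 3 ended the call of DHX58 (adjusted p = 0.0562) and of EIF2AK2 (adjusted p = 0.0660).

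TLR3, the endosomal sensor, fell least among the members called lower. It gave -0.50, -0.84, -0.58 and -0.65 on arrays 1 to 4, a narrow range with a mean of -0.64 (SD 0.15, n = 4, adjusted p = 0.0188). Its call was lost with 1 spread over all 8 arrays (adjusted p = 0.0933) and without array 1, 2 or 3, the adjusted p then running from 0.0792 to 0.108.

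MAVS, the mitochondrial adaptor of DDX58 and IFIH1, did not pass the test on any of its 3 probes, which all map to the same transcript accession. The brightest, A_24_P928798, gave log2 ratios of 0.45, 0.09, 0.21 and 0.51. These values were above 0 on every array but small, with a mean of 0.32 and a 95% interval of 0.02 to 0.61 (adjusted p = 0.106). A second probe, A_23_P68539, ran the same way, with a mean of 0.33 and a 95% interval of 0.01 to 0.65 (adjusted p = 0.114). The third, A_24_P164854, went the other way at -0.89, -1.26, -0.37 and 0.15, with a mean of -0.59 and a 95% interval of -1.17 to -0.01 (adjusted p = 0.118). That probe was dim: in the Mock channel it was well above background on 3 of the 4 arrays, and the scanner software's own log ratio on array 4 was 2.46.

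The interferon regulatory factors split in the RNA labelled MUC4-KD. IRF7, the factor that amplifies the interferon response, gave -1.72, -1.42, -1.94 and -1.94 on its brighter probe A_24_P378019. The arrays were tightly grouped and the mean was -1.76 (SD 0.25, n = 4), a 3.38-fold lower level (adjusted p = 0.00281). Its dimmer probe A_24_P118892 gave -1.65, -1.37, -2.39 and -0.51 and was called too (mean -1.48, adjusted p = 0.0246). IRF9, the DNA-binding subunit of ISGF3, gave -1.76, -1.45, -1.34 and -0.54. Array 4 was again the least low, and the mean was -1.27 (SD 0.52, n = 4, adjusted p = 0.0160). Without array 1, 2 or 3 its adjusted p was 0.0708, 0.0698 or 0.109.

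IRF1 went the opposite way, at 0.57, 0.68, 0.60 and 0.97 on arrays 1 to 4. All 4 arrays were above 0, with a mean of 0.70 (SD 0.18, n = 4), a 1.63-fold higher level in the RNA labelled MUC4-KD (adjusted p = 0.0175). With 1 spread over all 8 arrays the adjusted p was 0.197, and leaving out array 1, 2 or 3 put it between 0.0708 and 0.0980. IRF3, the constitutive factor activated by phosphorylation, gave 0.08, 0.36, -0.57 and -0.58. It was above 0 where the RNA labelled MUC4-KD was in Cy3 and below 0 where it was in Cy5, and the mean was -0.18 with a 95% interval of -0.65 to 0.29 (adjusted p = 0.517). With a dye term in the fit the adjusted p was 0.253.

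For the MUC4-KD arrays the number of called member probes depended on the arrays kept. It was 4, 4 and 2 without array 1, 2 or 3 and 10 without array 4, and the count over all tested probes moved with it, from 5131 on 4 arrays to 588, 960 and 154 without array 1, 2 or 3 and to 9347 without array 4. DDX58 and the brighter IRF7 probe passed in all 4 of these cases. No member probe passed when the arrays were centred on their medians without loess, a setting that left 1 called probe in the whole table, although the mean log2 ratio of DDX58 was -1.85 and that of IRF7 -1.53 there. The exact sign-flip test over 4 arrays cannot give a p under 0.125, so the calls rest on limma's spread shared across probes.

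In ErbB2-KD no member probe passed the test, against 1.43% of the 23869 probes tested. At an unadjusted p under 0.05, 5 of the 13 passed, all lower, against 18.0% of all tested probes, and the methods' t-test on the same values gave 3 unadjusted, against 13.3% of all, and 0 adjusted. Lower values on 4 of 4 arrays were seen for 5 of the 13 member probes, against 15.3% of 23817 probes measured on every array. The median of the member probes was -0.30 on the log2 scale, beside -0.01 for all tested probes.

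The 4 ErbB2-KD arrays, each with 1 clone, did not give the members the same values. A trait of a clone cannot be told apart from one of its array, slide or dye. The knockdown was in Cy5 for EV7 and EV12 and in Cy3 for EV9 and EV18. The median signal of its channel was 573.1 for EV12, against 184 for EV7, 91 for EV9 and 92.5 for EV18. Over the brightest probes of the 10 members the median log2 ratio was -0.19 in clone EV7, -1.32 in EV12, -0.39 in EV9 and -0.12 in EV18. A 2-fold or larger fall was measured for 0 members in EV7, 6 in EV12, 3 in EV9 and 1 in EV18, against 1.83%, 5.69%, 4.89% and 1.5% of all tested probes on the same arrays. On MUC4-KD arrays 1 to 4 it was measured for 6, 6, 6 and 4 members, against 6.70%, 6.27%, 5.37% and 2.23% of all tested probes. These are bulk RNA ratios, in which fewer expressing cells and less RNA per cell cannot be told apart.

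DDX58 gave log2 ratios of -0.15, -1.63, -0.85 and -0.05 in EV7, EV12, EV9 and EV18. It was low in EV12 and EV9 and near 0 in the others, with a mean of -0.67 and a 95% interval of -1.35 to 0.01 (adjusted p = 0.283). DHX58 showed the same split more widely, at 0.13, -2.76, -2.19 and -0.35. Its mean was -1.29 with a 95% interval of -2.52 to -0.07 (adjusted p = 0.255). IFIH1 was low in EV12 alone, at -0.11, -1.01, -0.03 and 0.21, with a mean of -0.24 and a 95% interval of -0.76 to 0.29 (adjusted p = 0.630). Without EV12 the IFIH1 mean was 0.02.

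TLR3 gave -0.19, -2.17, -1.58 and -1.0, low in 3 clones and near 0 in EV7. Its mean was -1.23 (SD 0.84, n = 4, 95% interval -2.0 to -0.47) with an adjusted p of 0.128. IRF9 gave -0.66, -1.67, -1.51 and -0.39, lower in every clone, with a mean of -1.06 (SD 0.63, n = 4, 95% interval -1.65 to -0.47) and an adjusted p of 0.106. These 2 genes passed when 1 spread was estimated over all 8 arrays, with adjusted p-values of 0.0282 for TLR3 and 0.0423 for IRF9.

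EIF2AK2 and IRF7 did not pass the test in ErbB2-KD. EIF2AK2 gave -0.20, -0.51, -0.30 and -0.38, with a 95% interval of -0.62 to -0.07 (adjusted p = 0.190). The brighter IRF7 probe gave -0.21, -0.35, -0.48 and -0.17, with a 95% interval of -0.58 to -0.03 (adjusted p = 0.241). The dimmer IRF7 probe gave -0.21, -0.12, -0.27 and 0.20, above 0 in EV18, with a mean of -0.10 (95% interval -0.40 to 0.20, adjusted p = 0.739). IRF1 was measured at -0.70, -2.67, 0.07 and 0.12. Clone EV12 stood far below the others, and the mean of -0.80 (95% interval -1.95 to 0.35, adjusted p = 0.436) became -0.17 without it. IRF3 gave -0.18, -0.03, 0.70 and 0.26, with a mean of 0.19 (95% interval -0.22 to 0.60, adjusted p = 0.626). The brightest MAVS probe gave -0.58, -0.28, 0.55 and -0.08, with a mean of -0.09 (95% interval -0.57 to 0.38, adjusted p = 0.856). The other 2 MAVS probes did not pass either. A_23_P68539 gave 0.01, 0.18, -0.01 and -0.21, with a mean of -0.0079 (95% interval -0.29 to 0.28, adjusted p = 0.983). A_24_P164854 gave -0.54, -0.10, 0.32 and -0.14, with a mean of -0.11 (95% interval -0.51 to 0.28, adjusted p = 0.773).

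The 2 experiments were then compared directly, as the MUC4-KD mean minus the ErbB2-KD mean of the log2 ratios over 8 arrays. With the ratios as labelled, 5 of the 13 member probes differed, against 9.91% of 25835 probes. They belonged to DDX58 (difference -1.36, 95% interval -2.12 to -0.60, adjusted p = 0.0376), IFIH1 (-1.76, adjusted p = 0.0390), EIF2AK2 (-1.22, adjusted p = 0.0131) and IRF7 (-1.45 on the brighter probe, adjusted p = 0.00277). All had the lower ratio over control in MUC4-KD. The ratios are over different control pools, so they do not compare RNA levels between the 2 knockdown lines. The DHX58 difference was -0.46, with a 95% interval of -1.82 to 0.91, and that of IRF9 was -0.22, with an interval of -1.0 to 0.57. TLR3 was the reverse, at 0.59 with an interval of -0.23 to 1.42, and IRF1 stood at 1.5 with an interval of 0.28 to 2.72 (adjusted p = 0.108). MAVS (0.41) and IRF3 (-0.37) did not pass, with intervals of -0.13 to 0.95 and -0.98 to 0.25.

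Each of the 3 slides held arrays of both experiments. Within slides 1, 2 and 3 the DDX58 difference as labelled was -1.39, -0.09 and -2.20, and that of IFIH1 -2.37, 0.29 and -2.63. Slide 2 carried clone EV12 and the dim MUC4-KD array 4, and IFIH1 had the opposite sign there. IRF7 differed on all 3 slides, by -1.08, -1.59 and -1.66, and EIF2AK2 by -1.41, -0.56 and -1.39. With the slide as a fixed block the adjusted p was 0.00718 for IRF7, 0.0245 for EIF2AK2, 0.0583 for DDX58 and 0.0683 for IFIH1. Leaving out any 1 array kept IRF7 and EIF2AK2 past the threshold in 8 of 8 cases, while DDX58 and IFIH1 passed in 2 of 8, without EV12 and without MUC4-KD array 4. The count of called member probes then ran from 2 to 5, with 2 in each of the 6 other cases, while that over all probes ran from 638 to 5060 beside 2559 with every array.

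With the MUC4-KD ratios turned, the direction in which MUC4 would be lower, 8 member probes differed, against 17.2% of all. DDX58 then differed by 2.70 (95% interval 1.94 to 3.46, adjusted p = 0.00210), DHX58 by 3.04 (adjusted p = 0.0131) and IRF9 by 2.33 (adjusted p = 0.00428). IFIH1, IRF7, EIF2AK2 and TLR3 differed by 2.23, 2.06, 1.91 and 1.87 in the same direction. IRF1 and IRF3 were near 0 in this reading, at 0.10 (interval -1.13 to 1.32) and -0.01 (interval -0.62 to 0.60), and MAVS was at -0.22 (interval -0.76 to 0.32). As labelled, the means of TLR3, DHX58 and IRF9 lay below 0 in both experiments, but none of the 3 passed the test in ErbB2-KD, and DHX58 was at 0.13 in EV7.

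**Figure D2:**
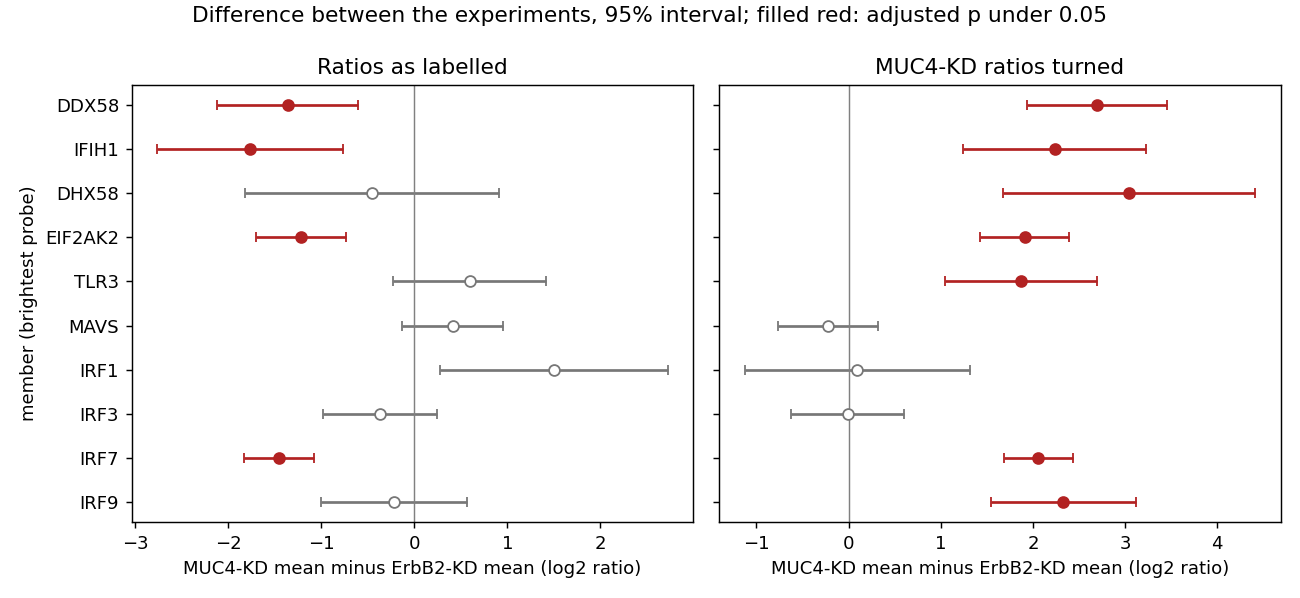
MUC4-KD mean minus ErbB2-KD mean of the log2 ratio (horizontal axis) with its 95% interval, for the brightest probe of each member, from limma over 8 arrays. With the ratios as labelled (left) DDX58, IFIH1, EIF2AK2 and IRF7 pass the test, and with the MUC4-KD ratios turned (right) these and DHX58, TLR3 and IRF9 pass.

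Of 26 genes of RIG-I-like receptor and TLR3 signalling other than the members, 6 had a lower and 3 a higher called probe in MUC4-KD, and none had one in ErbB2-KD. These were 9 of 45 tested probes in MUC4-KD, a share near the 20.5% of all tested probes called there in either direction. The median of their probes was -0.02 in MUC4-KD and -0.07 in ErbB2-KD. TNFAIP3, the A20 inhibitor of NF-kB, was highest at a mean log2 ratio of 1.45 (adjusted p = 0.0130). The other TNFAIP3 probe did not pass, at 0.48 (adjusted p = 0.0722). The ubiquitin ligase RNF125 was at -1.29 (adjusted p = 0.0450), and RIPK1, a kinase downstream of TLR3, at -1.02 (adjusted p = 0.0164). Of 8 interferon genes on the array, none had a tested probe in ErbB2-KD and 4 did in MUC4-KD. IFNL1, IFNL2 and IFNB1 passed the filter through the Mock channel alone, which favours a lower ratio. IFNE passed it through the knockdown channel alone, which favours a higher one. IFNL2, a type III interferon, gave -2.21, -1.40, -2.46 and -0.20 on MUC4-KD arrays 1 to 4, with array 4 far from the rest (mean -1.57, adjusted p = 0.0370). These probes were dim, and the median over the 4 tested was -0.65 here and -2.46 with the scanner software's log ratios.

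The targets of ISGF3, the complex that holds IRF9, were lower in MUC4-KD. All 33 tested probes of 23 ISGF3 target genes were called lower, with a median log2 ratio of -2.12, against the 8.48% of all probes lower. The gene lists were chosen with earlier results of these data known, so such counts are a description and not a test. Both RSAD2 probes among the 33 passed the filter through the Mock channel alone, which favours a lower ratio. MX2, an antiviral GTPase, had a mean of -3.99 (adjusted p = 0.000988). The RNA-binding IFIT2 and IFIT1 were at -3.66 (3 arrays, adjusted p = 0.00771) and -3.30 (adjusted p = 0.00232). Of the oligoadenylate synthetase family and RNase L, 4 of 5 genes had a called probe, all lower, with a median of -1.84. These were 6 of 7 tested probes, against 8.48% of all probes lower. OASL was lowest at -3.95 (adjusted p = 0.00138), before OAS2 at -2.28 (adjusted p = 0.0266) and OAS1 at -2.20 (adjusted p = 0.00714). In ErbB2-KD 2 of 31 tested ISGF3 target probes were called, both lower, and 0 of 6 of the synthetase group, against 1.43% of all. The medians were -0.68 and -0.99.

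Some genes of the lists were called in both experiments. IFI44L, an interferon-stimulated gene, had means of -3.15 (adjusted p = 0.0366) in ErbB2-KD and -3.22 (adjusted p = 0.00283) in MUC4-KD. DTX3L, a ubiquitin ligase, had means of -0.89 (adjusted p = 0.0435) and -0.66 (adjusted p = 0.0405). Both genes were lower in the 2 experiments as labelled. The other DTX3L probe passed in MUC4-KD alone, at -0.84 (adjusted p = 0.0478), and was at -1.055 in ErbB2-KD (adjusted p = 0.0687). In ErbB2-KD IFI44L passed the filter through the NT channel alone, with the knockdown channel well above background on 2 of 4 arrays. Among 15 genes of interferon receptors and JAK-STAT, 3 had a higher and 3 a lower called probe in MUC4-KD, or 7 of 21 tested probes beside 20.5% of all. USP18, which restrains interferon receptor signalling, was at -2.65 (adjusted p = 0.00232) and SOCS1, an inhibitor of the JAK kinases, at -0.81 (adjusted p = 0.0135). The other SOCS1 probe did not pass, at -0.35 (adjusted p = 0.0894). The 3 called higher were the interferon gamma receptor chains IFNGR1 and IFNGR2, at 0.45 (adjusted p = 0.0425) and 0.59 (adjusted p = 0.0215), and PIAS1, at 0.42 on 1 of its 2 probes (adjusted p = 0.0496) and -0.08 on the other. These 3 were named after their values were seen.

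**Figure D3:**
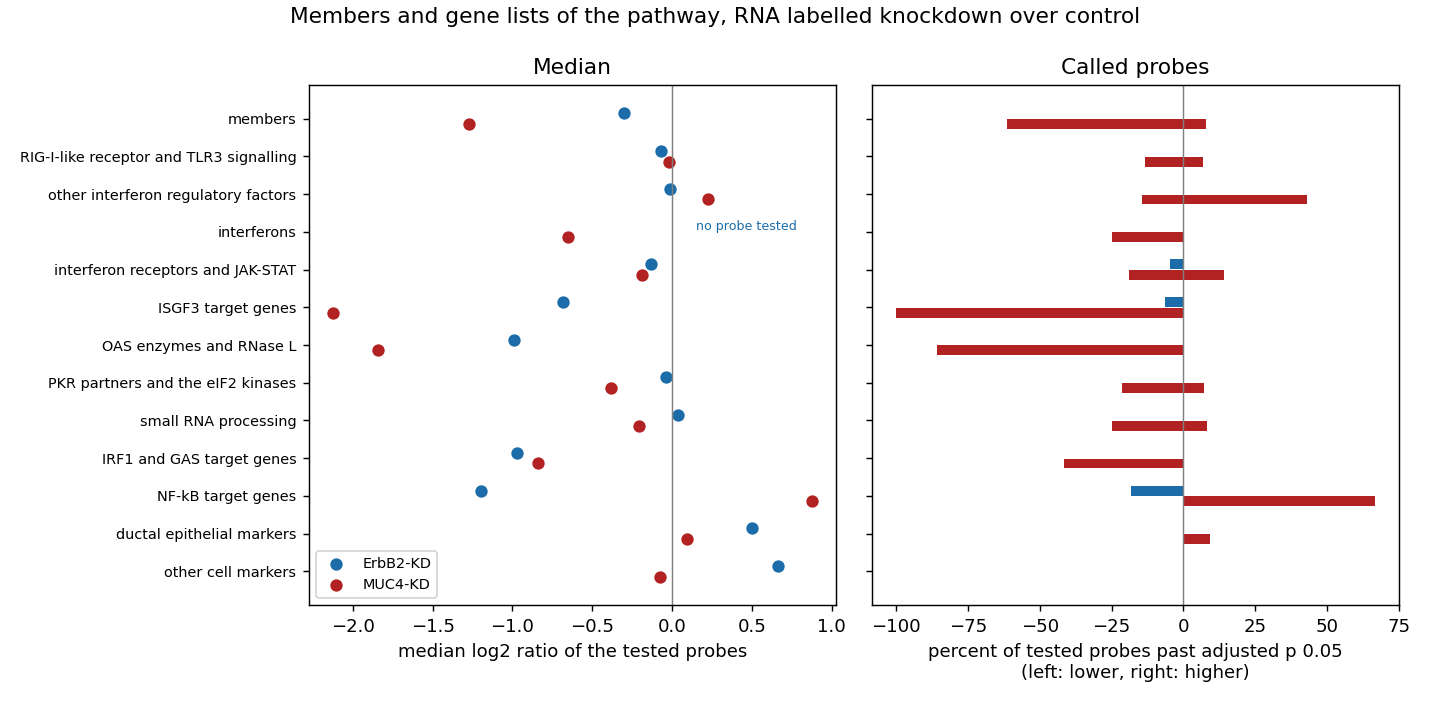
Median log2 ratio of the tested probes (left) and percent of tested probes past an adjusted p of 0.05, drawn leftward for lower and rightward for higher (right), for the members and each gene list in both experiments. The members sit at a median of -1.27 in MUC4-KD, between the ISGF3 targets at -2.12 and the other signalling genes at -0.02.

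In MUC4-KD the lists next to IRF1 did not move with it as 1 group. Of 13 IRF1 and GAS target genes 5 had a called probe in the RNA labelled MUC4-KD, all lower, while IRF1 was higher there. These were 5 of 12 tested probes, against 8.48% of all probes lower. WARS1, a tryptophan tRNA synthetase induced by interferon gamma, was at -2.01 (adjusted p = 0.00232), CXCL11, a chemokine, at -1.34 (adjusted p = 0.0419) and TAP1, a peptide transporter of antigen presentation, at -1.21 (adjusted p = 0.00405). Among NF-kB targets 7 of 11 genes had a called probe, all higher like IRF1, or 8 of 12 probes against 12.0% of all probes higher. The median over the 12 probes was 0.88. Of the 4 genes not called, CCL20 was at 0.75, and CCL5, RELB and NFKBIE lay below 0, at -0.94, -0.60 and -0.13. BIRC3, an inhibitor of apoptosis, was at 2.10 (adjusted p = 0.00271), and the chemokines CXCL1 and CXCL2 at 1.86 (adjusted p = 0.00271) and 1.57 (adjusted p = 0.00628). In ErbB2-KD 2 of 11 tested NF-kB target probes were called, against 1.43% of all, RELB at -1.20 (adjusted p = 0.0228) and CCL5 at -1.70 (adjusted p = 0.0455). Of the 10 tested IRF1 and GAS target probes 0 were called there. The ErbB2-KD medians were -1.20 for the NF-kB targets and -0.97 for the IRF1 and GAS targets. IRF1, which did not pass the test there, had a mean on the same side of 0, at -0.80.

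Among the other interferon regulatory factors and their cofactors, IRF2BP2 (0.78, adjusted p = 0.0105) and IRF2 (0.69, adjusted p = 0.0409) were higher and IRF2BP1 (-0.67, adjusted p = 0.0165) lower in MUC4-KD. Their probes disagreed: the other tested probes of IRF2BP2 were at -0.09 and 0.23, and that of IRF2 at 0.01. Of 11 PKR partners and eIF2 kinases, 3 genes had a lower and 1 a higher called probe, which is 4 of 14 probes beside the 20.5% called over all. PPP1R15A, the GADD34 phosphatase subunit that reverses eIF2 phosphorylation, was at -1.82 (adjusted p = 0.00200), and ATF4, whose translation rises with that phosphorylation, at -0.93 (adjusted p = 0.00651). The other ATF4 probe did not pass, at a mean of -0.56 (adjusted p = 0.181), with 0.52 on array 4. TARBP2, a PKR inhibitor and Dicer partner, was at -0.69 (adjusted p = 0.0133). In the small RNA processing list of 9 genes 4 of 12 tested probes were called, 3 of them lower, beside the 20.5% called over all. XPO5, which exports hairpin precursors from the nucleus, was at -0.99 (adjusted p = 0.0166) and ADAR, which edits double-stranded RNA, at -0.59 (adjusted p = 0.0299). The other ADAR probe was at -0.44 and did not pass (adjusted p = 0.102). The 2 called DGCR8 probes disagreed, at 0.84 (adjusted p = 0.0281) and -1.23 (adjusted p = 0.00495). None of these 3 lists had a called probe in ErbB2-KD.

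Among 11673 other genes tested in both experiments, the 8 log2 ratios closest to those of DDX58 belonged to SLC15A3, PYCR1, USP18, IFI35 and FUT1. Their root mean square differences from DDX58 ran from 0.30 to 0.36 on the log2 scale. Their means were -0.61, -0.60, -0.74, -0.88 and -0.59 in ErbB2-KD and -1.92, -1.78, -2.37, -2.0 and -1.76 in MUC4-KD. The genes closest to IRF1 were SDC4, CGNL1 and ADA, with root mean square differences of 0.35, 0.43 and 0.43. This likeness is a description over 8 arrays that share 2 control pools.

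**Figure D4:**
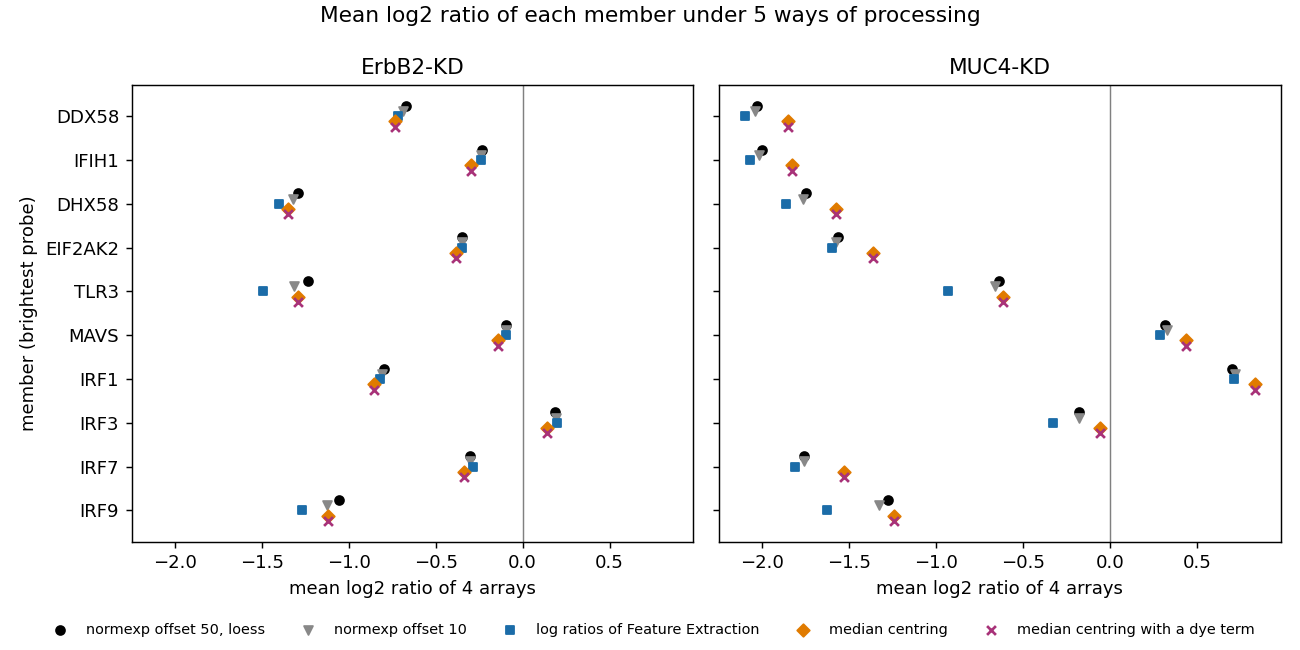
Mean log2 ratio of 4 arrays (horizontal axis) for the brightest probe of each member under 5 ways of processing, marked by symbol. For the 8 members called in MUC4-KD the sign is the same under all 5, and the IRF9 mean runs from -1.63 with the Feature Extraction log ratios to -1.24 with median centring.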

How the data were processed

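Total RNA of CAPAN-2 clones was hybridised on 8 Agilent 2-colour arrays, with 2 arrays of each dye orientation per experiment. Per the file headers, the authors deposited scanner output of Feature Extraction 10.5.1.1 (10.5 in the submitters' notes): median spot and background intensity per channel on a linear scale, and a background-subtracted, dye-normalized log10 ratio of Cy5 over Cy3. The deposited value table held the same log10 ratios, turned to knockdown over control (largest deviation 4.99e-06). The array's grid is annotated on hg18 per the file headers, and no position from it was used; probes were named by matching accessions to RefSeq (25398 of 41000 probes, none with several symbols).

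Spot intensities were background-corrected by normexp (offset 50), loess-normalized within each array, turned to labelled knockdown over control by the dyes in the labels, and averaged per probe in R 4.3.3 with limma 3.58.1. Spots with outlier flags were left out; no member probe had one, and no spot was saturated. A probe was tested, with lmFit and eBayes, where the knockdown or the control channel exceeded background clearly (IsWellAboveBG) on each of the 4 arrays, and p-values were adjusted by Benjamini-Hochberg over all of them, with an adjusted p under 0.05 as the threshold. The difference between experiments was fitted over all 8 arrays. Intervals are 95% intervals from limma. The labels do not say whether arrays come from separate cultures, so p-values measure the spread between these arrays, and 4 arrays per experiment limit the precision. The code was tested on simulated data.

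All 10 members are named with every probe that mapped to them, and a member's value is that of its brightest tested probe. A further probe, named in the study's own gene table for IRF9 under the symbol ISGF3G, did not map to RefSeq and was left out. Of the pathway lists, genes called in both experiments and the 3 largest changes per list and experiment are named; likeness is the root mean square difference of the 8 log2 ratios. Members and lists were chosen with earlier results of these data known. Alternatives were other offsets, scalings, filters, dye, slide and replicate terms, spreads and tests, and leaving out each array. Promoter sequences are from RefSeq. Some genes that the naming rule selected are not reported here.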

Additional observations from a re-analysis of the deposited data

Results flagged for a closer look

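These members differed between the 2 experiments by the test of the difference itself (limma over 8 arrays), given as MUC4-KD mean minus ErbB2-KD mean of the log2 ratios. As labelled, the difference was -1.36 for DDX58, -1.76 for IFIH1, -1.22 for EIF2AK2 and -1.45 for IRF7, each ratio over control being lower in MUC4-KD. With the MUC4-KD ratios turned it was 2.70 for DDX58, 2.23 for IFIH1, 3.04 for DHX58, 1.91 for EIF2AK2, 1.87 for TLR3, 2.06 for IRF7 and 2.33 for IRF9. Within each of the 3 slides the turned differences of these genes kept their sign. No member, on its brightest probe, had a single array set far enough from the other 3 of its experiment to be singled out by Dixon's criterion, which chance meets in about 1 of 20 groups.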

How the results depend on the processing

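In MUC4-KD 9 member probes were called. The count was 0 with median centring in place of loess, 0 with median centring and a dye term (an alternative chosen after seeing the data), and 0 with the methods' t-test after Benjamini-Hochberg. Leaving out 1 array gave 2 to 10, while all called probes ran from 154 to 9347 beside 5131. In ErbB2-KD the count of 0 became 2 with the slide as a random block and 2 in 1 fit over all 8 arrays (TLR3 and IRF9), as all called probes rose from 342 to 1095 and 1121, and was 0 without each array. The 5 calls in the difference as labelled became 0 with median centring, 0 with median centring and a dye term, 2 without a filter on dim probes, 3 with the slide as a fixed block, and 2 to 5 without 1 array (638 to 5060 of all probes). The 8 calls with the MUC4-KD ratios turned became 0 with median centring, with and without a dye term, and stayed at 7 to 9 without 1 array. The cause was not tested.

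Replicate numbers did not pair the arrays: deviations of same-numbered arrays correlated at -0.23 to -0.04. With the replicate number as a block, 2 member probes were called in the difference as labelled and 8 with the ratios turned.

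Called members kept their sign under every alternative in the experiment where they were called. Signs that turned were those of values near 0. Without 1 array the ErbB2-KD log2 ratio ran from -0.38 to 0.023 for IFIH1 and from -0.31 to 0.066 for MAVS, the labelled difference from -0.95 to 0.019 for DHX58 and from -0.46 to 0.0065 for IRF9, and the turned difference from -0.53 to 0.40 for IRF1 and from -0.14 to 0.17 for IRF3. With the Feature Extraction log ratios the turned IRF3 difference was 0.13. For dim probes, such as A_24_P164854 of MAVS, signal over background limits what the ratio can show.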
